A study of Mus musculus with 6 samples.

Results

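The 10 immediate early response genes Fos, Fosb, Jun, Junb, Egr1, Egr2, Ier2, Ier3, Atf3 and Zfp36 were examined among 18194 genes with a probe set of their own on the array. They were chosen by name, and every probe set that the platform annotation assigned to exactly 1 of them was used, which gave 12 probe sets. Total RNA of mouse embryonic stem cells was hybridised to Affymetrix mouse arrays. One group was Gsk-3a-/-; Gsk-3b-/- cells (called DKO), which lack both genes of glycogen synthase kinase-3, and the other was Wild-type (E14K) cells, with 3 arrays each. All cultures were feeder-free on gelatin, in 15% serum and 1000 units/ml of ESGRO, a preparation of leukaemia inhibitory factor. Before lysis the cells of both genotypes were lifted with 0.25% trypsin EDTA for 1 minute at 37 °C, and the trypsin was quenched with serum-containing medium. The labels do not say which parent line or clone the DKO cells were, so other differences between the cell lines and the loss of Gsk-3 cannot be told apart. Nor do they say that the replicates came from separate cultures, and a p-value then reflects nothing more than the scatter among these arrays, which may be technical.

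Immediate early genes are transcribed without new protein synthesis when cells meet serum, growth factors or stress, and their mRNAs are short-lived. Mitogen-activated protein kinases, or kinases that they activate, phosphorylate factors waiting on the promoters. Among these are the Elk partners of serum response factor and the CREB family. The products of the genes are mostly transcription factors that pass the signal on. Enzymatic dissociation and return to serum are known to induce the same genes, which is why each array is shown here. Gsk-3 is known to phosphorylate c-Jun protein and so to limit its activity. The arrays measured RNA and not protein.

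Promoter windows are shown because some of the sites through which such signals are read lie near the start. They are those of the gene that passed the test (Zfp36) and of the gene that passed in the model with the replicate number (Fosb). The windows of the gene whose arrays did not overlap (Jun) and of the best known member (Fos) are added. Sites farther than 250 bases upstream lie outside the windows, so a window without a site does not show that the gene lacks it. All are RefSeq sequences of GRCm38.p6 running from 250 bases before to 50 bases after the annotated start. A window was used for 8 of the 10 genes. None was used for Egr1 or Ier2, so their sites were not searched. Capitals mark a CArG box, the site of serum response factor, TGACG, part of the cyclic AMP response element, TGACATCA, the variant element of the Jun promoter, or TATAAA. All were searched on both strands, and no marked sites overlapped in these windows.
Zfp36 (chr7:28379179-28379478, minus strand): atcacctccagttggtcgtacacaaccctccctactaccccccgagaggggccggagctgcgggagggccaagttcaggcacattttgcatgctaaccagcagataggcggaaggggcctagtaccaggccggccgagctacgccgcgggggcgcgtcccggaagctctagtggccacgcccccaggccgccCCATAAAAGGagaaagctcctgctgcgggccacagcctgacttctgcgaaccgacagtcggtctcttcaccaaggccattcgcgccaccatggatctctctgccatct
Fosb (chr7:19309996-19310295, minus strand): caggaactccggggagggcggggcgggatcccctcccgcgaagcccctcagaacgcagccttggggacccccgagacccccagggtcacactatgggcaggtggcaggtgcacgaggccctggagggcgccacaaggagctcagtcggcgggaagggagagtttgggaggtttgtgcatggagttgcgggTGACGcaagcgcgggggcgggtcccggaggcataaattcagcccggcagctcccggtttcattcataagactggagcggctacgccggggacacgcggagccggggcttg
Jun (chr4:95052173-95052472, minus strand): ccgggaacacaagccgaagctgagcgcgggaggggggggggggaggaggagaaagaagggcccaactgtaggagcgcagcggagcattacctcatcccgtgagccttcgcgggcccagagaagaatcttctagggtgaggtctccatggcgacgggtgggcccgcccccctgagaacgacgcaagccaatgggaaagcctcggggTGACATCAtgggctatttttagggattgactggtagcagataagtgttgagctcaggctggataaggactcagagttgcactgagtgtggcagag
Fos (chr12:85473640-85473939, plus strand): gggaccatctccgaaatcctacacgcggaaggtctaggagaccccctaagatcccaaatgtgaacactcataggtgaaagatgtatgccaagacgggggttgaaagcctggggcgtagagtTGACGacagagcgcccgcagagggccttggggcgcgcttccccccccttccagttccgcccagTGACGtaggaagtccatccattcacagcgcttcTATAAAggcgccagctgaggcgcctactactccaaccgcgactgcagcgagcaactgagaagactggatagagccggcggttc
The Zfp36 window held a CArG box, CCATAAAAGG, beginning 58 bases upstream of the start. Among the 8 genes searched, the only other with one was Egr2, in 4 of its 5 overlapping or neighbouring windows. Of all 32851 windows of this length 1.63% held one. TGACG stood 60 bases upstream in Fosb and 129 and 66 bases upstream in Fos, and 20.8% of all windows had it. TGACATCA began 45 bases upstream in Jun (3.62% of all windows), and TATAAA 33 bases upstream in Fos (13.6%). A match describes letters, not binding.

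Median intensity was 10 or 11 on every array, and precision is limited by there being 6 of them. Gsk3a averaged 6.77 ± 0.63 (SD) over the DKO arrays and 8.15 ± 0.44 over the wild-type arrays on the log2 scale, which did not pass by limma (adjusted p = 0.0942) but did with the replicate number as a block (adjusted p = 0.00646). The 5 tested probe sets of Gsk3b did not pass in either model, and none is known here to lie in the deleted part. Replicate 3 of both genotypes stood apart: its bacterial and phage spike-in probe sets averaged 9.49 (DKO) and 9.88 (wild-type) on the log2 scale, against 1.70 to 1.87 on the other arrays. The labels name no batch, and replicate 3 of both genotypes was entered in an alternative model as a term of its own, called the replicate 3 term below. Embryonic stem cell markers were above the filter in both genotypes, as the labelled cell type has them. All 15 were tested, 0 passed by limma (1 at an unadjusted p under 0.05, 0 with the replicate block), and their summed intensity, over the brightest probe set of each gene as in all such sums here, was 37555 to 40034 on DKO and 37898 to 40660 on wild-type arrays.

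**Figure D1:**
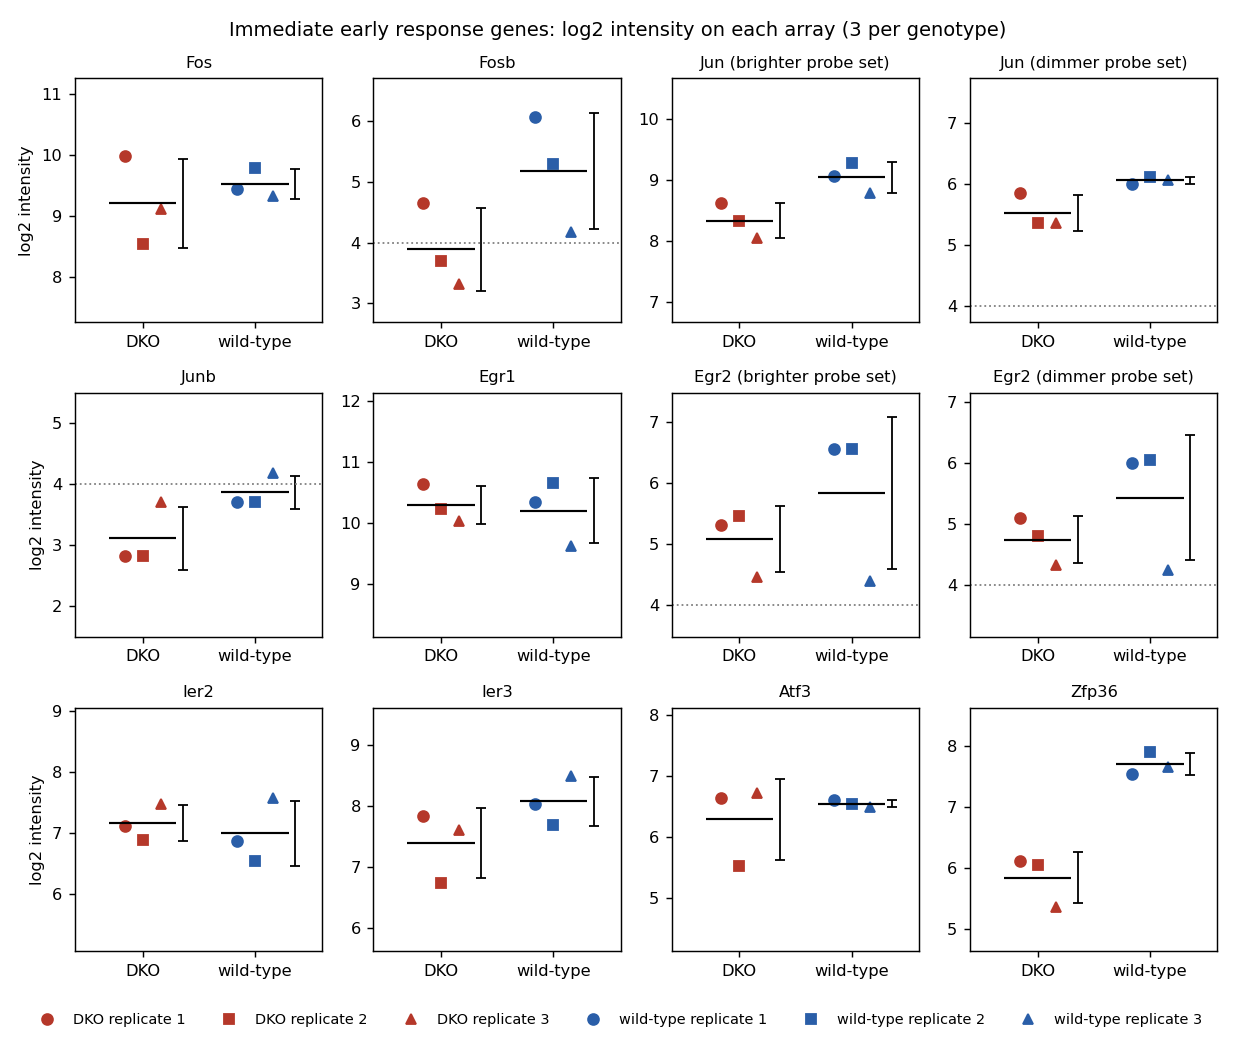
Log2 intensity (vertical axis, each panel 4 log2 units high) of the 12 probe sets on each array, with DKO at the left and wild-type at the right of every panel. Symbols give the replicate number, horizontal lines the means and bars the SD (n = 3), and the dotted line is the filter at a log2 value of 4. Zfp36 and both probe sets of Jun have all DKO arrays below all wild-type arrays, and Egr2 is low on replicate 3 of both genotypes.

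Of the 10 genes, 9 passed the filter on dim probe sets (a log2 value of at least 4, an intensity of 16, on at least 3 arrays), and Junb did not. Zfp36 was lower in DKO cells, and the other 8 tested genes did not pass. That is 1 of 9 genes called lower, beside 2.50% of all 10496 tested genes (4.13% in either direction). With the replicate number as a block 2 of 9 were lower, Zfp36 and Fosb, beside 5.63% of all genes, and with the replicate 3 term 1 of 9, beside 3.79%. At an unadjusted p under 0.05 there were 3 of 9 (Zfp36, Jun and Fosb), beside 14.7%. Fosb met the filter through its wild-type arrays, with 2 of its DKO arrays under 16, so its place in these counts is no support. With no filter its unadjusted p was 0.096, and 2 members were under 0.05. The DKO mean lay below the wild-type mean in 7 of 9 genes, with a median log2 difference of -0.68. Fosb is included in both values, with the same limit. Of all tested genes 50.3% lay below, and their median was 0.00. The DKO arrays lay entirely below the wild-type arrays in 2 of 9 genes, against 10.4% of all genes. In RNA from whole cultures, fewer expressing cells and less RNA per cell cannot be told apart.

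Zfp36 encodes tristetraprolin, a zinc-finger protein that binds AU-rich elements of mRNAs, among them those of early response genes and cytokines, and brings about their decay. Its intensities were 69, 66 and 41 on the DKO arrays, against 187, 239 and 202 on the wild-type arrays. The brightest DKO array was dimmer than the dimmest wild-type array. On the log2 scale the DKO arrays averaged 5.84 ± 0.42 and the wild-type arrays 7.70 ± 0.18 (SD, n = 3 each), a difference of -1.87 (SE 0.28, 95% interval -2.49 to -1.24, adjusted p = 0.00711 by limma), which made wild-type 3.64-fold higher. Each same-numbered pair had the same direction, with log2 differences of -1.44, -1.86 and -2.30. Within replicates 1 and 2 the difference was -1.65 (adjusted p = 0.0345), and with the replicate 3 term adjusted p = 0.00261. The call held in each of the 6 fits with an array omitted (adjusted p = 0.0162 to 0.0432) and was lost only when no probe set was filtered out (adjusted p = 0.0606; 0.000894 to 0.0606 over 15 alternatives).

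The relatives of Zfp36 did not pass. Of 5 tested genes of its family and of other proteins that bind AU-rich elements, 0 passed by limma (0 at an unadjusted p under 0.05, 0 with the replicate block), and the largest difference was that of Khsrp, a decay factor, at -0.16 (adjusted p = 0.906). Whether Zfp36 differs from them was not tested.

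Markers of other cells were set beside the fall of Zfp36, because fibroblasts and blood cells also express early response genes. Of 20 fibroblast and feeder markers 19 had a probe set and 12 were tested. Of these 0 passed by limma (2 at an unadjusted p under 0.05, beside 14.7% of all genes). Those 2 moved in the direction of Zfp36, with every DKO array below every wild-type array, as in 10.4% of all genes. Col1a1, a chain of type I collagen, read 105, 73 and 76 in DKO, against 316, 135 and 221 in wild-type cells (difference -1.34, adjusted p = 0.0805, and 0.00506 with the replicate block). Acta2, smooth muscle actin, had the largest difference of the list, at 48, 14 and 21 in DKO, against 92, 53 and 149 in wild-type cells (difference -1.90, adjusted p = 0.096, and 0.00513 with the block). Other markers lay on the opposite side: Col1a2, the partner chain of Col1a1, read 73, 51 and 25 in DKO and 39, 28 and 18 in wild-type cells (difference 0.75, adjusted p = 0.558), and Thy1 (0.44), Pdgfra (0.62) and Col6a1 (0.94, higher with the block at adjusted p = 0.0469) also had the higher mean in DKO. Acta2 had 1 DKO array under 16 and Col6a1 had 2 wild-type arrays under it, so each met the filter through the group where it was higher. The median difference of the 12 was 0.25. Col1a1, Col1a2, Thy1 and Pdgfra were above 16 on every array, and Col3a1, Postn and Lum were under 16 on every array. The list summed to 7740 to 8972 on DKO and 6994 to 8988 on wild-type arrays, but Vim alone made up 4118 to 5360 in DKO and 4553 to 5610 in wild-type cells, so the sum says little of the dimmer markers. Of 10 blood markers with a probe set 6 were under 16 on every array, among them Ptprc, Csf1r and Lyz2, and the list summed to 492 to 690 in DKO and 417 to 550 in wild-type cells. Kit alone read 267 to 588 in DKO and 322 to 417 in wild-type cells, so this sum says little of the other blood markers. Of 3 tested blood markers 0 passed by limma (0 at an unadjusted p under 0.05). Markers of differentiating cells summed to 4826 to 7601 in DKO and 2711 to 6702 in wild-type cells. Of 12 tested, 1 rose, 1 fell and 10 did not pass, where 4.13% of all genes passed in either direction. At an unadjusted p under 0.05 there were 6 (14.7% of all genes). The median log2 difference was 0.94, against 0.00 over all genes. The trophoblast and caudal factor Cdx2 rose by 4.09 (adjusted p = 9.71e-05), and Pax6, a neural and eye factor, fell by 3.47 on the log2 scale (adjusted p = 0.000826). With 16 added to each value the differences were 3.89 for Cdx2 and -2.57 for Pax6, so the size of the Pax6 fall depends on dim values. All DKO arrays lay below all wild-type arrays in 2 of the 12, beside 10.4% of all genes, and above them in 5. With the replicate block 2 were lower, beside 5.63% of all genes, and 2 were higher. The shares of all genes on the higher side were not computed. The part of these cells and of this shift in the fall of Zfp36 and in the other members' values was not tested.

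**Figure D2:**
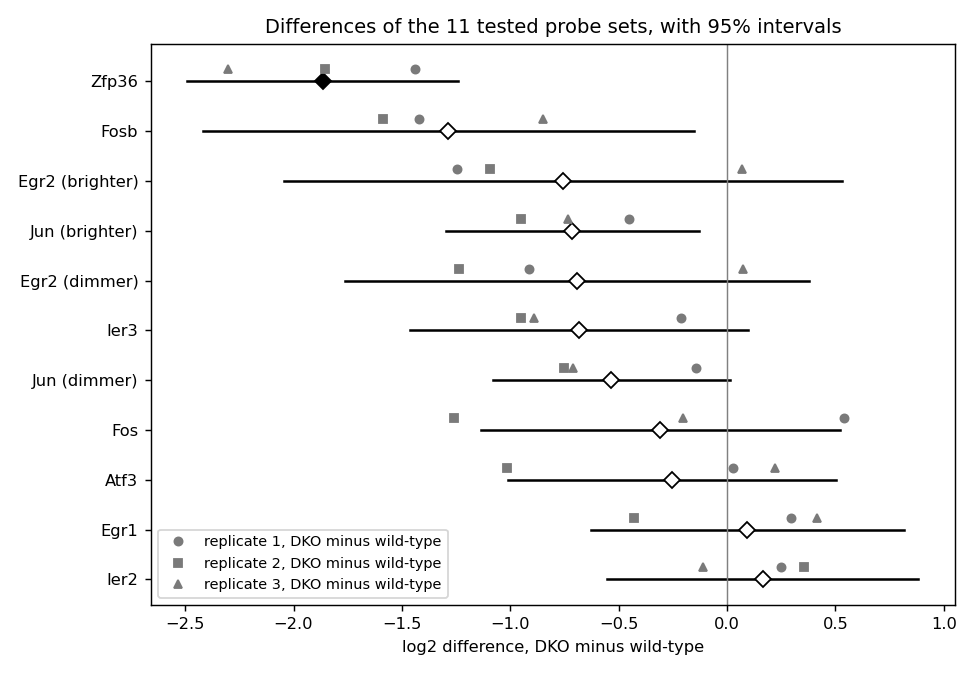
Log2 difference, DKO minus wild-type (horizontal axis), of the 11 tested probe sets. Diamonds are the fitted differences, filled where the adjusted p is under 0.05, black lines are 95% intervals of single probe sets without adjustment, and grey symbols are the differences of same-numbered arrays. Zfp36 at -1.87 has the only filled diamond, and the 3 pairs of Fos and of Atf3 lie on both sides of 0.

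Fos and Fosb belong to the Fos side of AP-1, the dimer that binds TGA(C/G)TCA sites, and need a Jun partner. Fos read 1012, 370 and 555 on the DKO arrays, against 697, 886 and 639 on the wild-type arrays. The genotypes overlapped, since the DKO cells held both the highest and the lowest array. The log2 difference was -0.31 (95% interval -1.14 to 0.52, adjusted p = 0.845). The pairs differed by 0.54, -1.26 and -0.20, and without DKO replicate 2 the difference was 0.031.

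Fosb, a relative of Fos known for slow accumulation of its truncated form in neurons, was dim. Its intensities were 25, 13 and 10 in DKO, against 67, 39 and 18 in wild-type cells, and DKO replicate 1 was brighter than wild-type replicate 3. In both genotypes replicate 1 was the brightest and replicate 3 the dimmest array, and each DKO array was below the wild-type array of its number, by log2 differences of -1.42, -1.58 and -0.85. The fitted difference of -1.29 (SE 0.50, 95% interval -2.42 to -0.15) did not pass by limma (adjusted p = 0.296), passed with the replicate number as a block (adjusted p = 0.00622) and was at adjusted p = 0.065 with the replicate 3 term. Over replicates 1 and 2 alone it was -1.50 (adjusted p = 0.152). At such intensities rounding to whole numbers is coarse, and with 16 added to each value the difference was -0.78.

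Jun and Junb encode the Jun side of AP-1, with c-Jun the stronger activator. The brighter probe set of Jun read 392, 323 and 265 in DKO cells, against 537, 624 and 441 in wild-type cells, with no overlap. The dimmer one read 58, 41 and 41 in DKO cells, against 64, 69 and 67 in wild-type cells, also with no overlap. Wild-type was 1.64-fold and 1.45-fold higher on the 2 probe sets, with log2 differences of -0.71 (95% interval -1.30 to -0.13, adjusted p = 0.249) and -0.53 (95% interval -1.08 to 0.01, adjusted p = 0.399). Neither passed after adjustment over all probe sets, also not with the replicate block (adjusted p = 0.066 and 0.185). The smallest difference called in any gene was 1.04, above both of these. Junb read 7, 7 and 13 in DKO and 13, 13 and 18 in wild-type cells. Its only array above the filter was wild-type replicate 3, so no fold is given, and without any filter it did not pass (adjusted p = 0.518).

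Egr1 and Egr2 encode zinc-finger activators that bind GC-rich sites. Egr1 had 1603, 1201 and 1048 in DKO, against 1305, 1615 and 787 in wild-type cells, and the genotypes overlapped. Its log2 difference was 0.09 (95% interval -0.63 to 0.82, adjusted p = 0.96), and the sign changed with the arrays used: it was -0.20 without wild-type replicate 3 and 0.32 at the highest when another array was omitted. A difference between the genotypes was not detectable with 3 arrays each.

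Egr2, known as Krox20 for its role in hindbrain and myelin, separated the genotypes on some arrays only. The brighter probe set read 40, 44 and 22 in DKO, against 95, 94 and 21 in wild-type cells, and the dimmer one 34, 28 and 20 in DKO, against 64, 66 and 19 in wild-type cells. On replicates 1 and 2 both probe sets were lower in DKO, whereas on replicate 3 both genotypes were low and close together. The brighter probe set differed by -1.17 over replicates 1 and 2 (adjusted p = 0.104) and by 0.07 in replicate 3. Over all arrays the log2 differences of the 2 probe sets were -0.76 (95% interval -2.05 to 0.53, adjusted p = 0.701) and -0.69 (95% interval -1.76 to 0.38, adjusted p = 0.661). With the replicate 3 term they were at adjusted p = 0.197 and 0.232, and without wild-type replicate 3 the brighter one differed by -1.48 (adjusted p = 0.0643), so neither passed.

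Ier3 encodes IEX-1, an early response protein tied to cell survival. It read 228, 107 and 195 in DKO, against 264, 207 and 361 in wild-type cells, and DKO replicate 1 lay above wild-type replicate 2. Every same-numbered pair was lower in DKO (-0.21, -0.95 and -0.89), but the log2 difference of -0.68 (95% interval -1.46 to 0.10) did not pass (adjusted p = 0.471, and 0.1 with the replicate block). Ier2 read 139, 119 and 178 in DKO and 117, 93 and 192 in wild-type cells, which overlapped (difference 0.17, 95% interval -0.55 to 0.88, adjusted p = 0.914). Atf3, a stress-induced factor of the ATF/CREB family that often represses, read 99, 46 and 105 in DKO, against 97, 93 and 90 in wild-type cells. Only DKO replicate 2 stood away from the other arrays, and the difference was -0.25 (95% interval -1.01 to 0.50, adjusted p = 0.862), or 0.13 without that array.

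Arrays of 1 genotype differed from each other in these genes more than in the median gene. The within-genotype SD of the 9 tested genes had a median of 0.47 log2 units, against 0.34 over all tested genes, and 4 of 9 lay above the upper quartile of all genes, 0.48. Egr2 (SD 0.97) and Fosb (0.83) varied most, while Jun (0.27) and Zfp36 (0.32) lay below the median of all genes. Egr2 and Fosb were also dim, at intensities of 21 to 95 and 10 to 67. The comparison was with genes of every brightness, and the part of low intensity in this spread was not tested. Relative to its own genotype mean, DKO replicate 1 was high in 8 of 9 genes, by 0.38 log2 units on average. DKO replicate 2 and DKO replicate 3 were each high in 3 of 9, at -0.23 and -0.15, and wild-type replicate 3 was high in 2 of 9, at -0.29. Wild-type replicates 1 and 2 were at 0.16 and 0.13. Over all tested genes the same averages lay between -0.10 and 0.07.

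The genes did not move on the arrays as 1 block. Fosb, Egr2, Egr1, Jun, Zfp36 and Fos were lower on replicate 3 than on the mean of replicates 1 and 2 in both genotypes. For Egr2 this log2 difference was -0.93 in DKO and -2.17 in wild-type cells, and for Egr1 it was -0.40 in DKO and -0.88 in wild-type cells. The same difference was only -0.14 for Fos in DKO and -0.07 for Zfp36 in wild-type cells. On the dimmer probe set of Jun it was 0.01 in wild-type cells. Ier2, Ier3 and Junb were higher on replicate 3 in both genotypes, Ier2 by 0.47 in DKO and by 0.88 in wild-type cells. DKO replicate 2 was low in Fos, Atf3 and Ier3 together. Replicate 3 is also the number with the higher spike-in signal, whose part in these shifts was not tested.

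**Figure D3:**
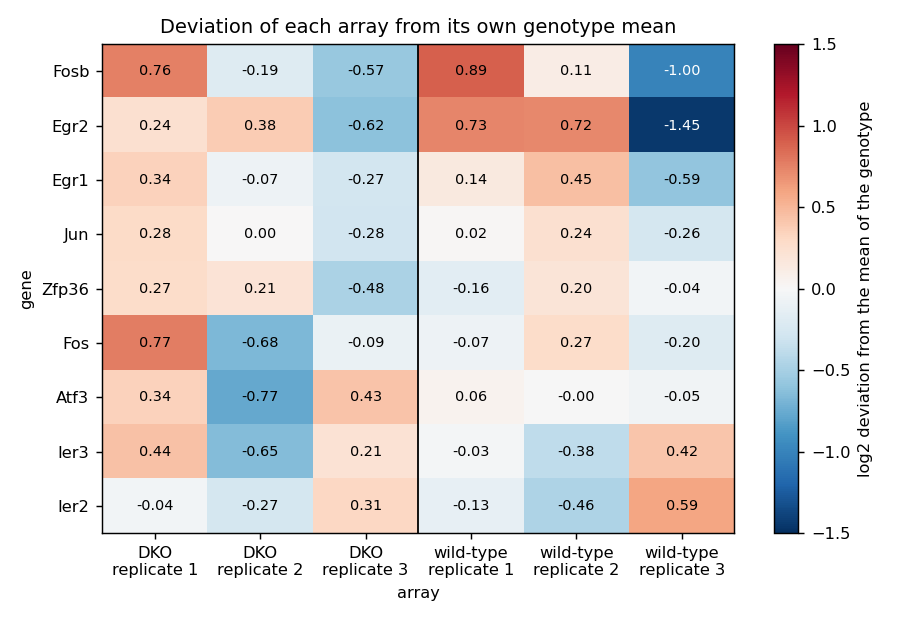
Log2 deviation of each array (horizontal axis) from the mean of its own genotype, for the 9 tested genes (vertical axis, brightest tested probe set). DKO arrays are on the left and wild-type arrays on the right. Replicate 3 is below its genotype mean in Fosb, Egr2, Egr1, Jun, Zfp36 and Fos and above it in Ier3 and Ier2 in both genotypes.

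The mean profile of the 9 genes over the 6 arrays, each gene centred on its own mean, had an SD of 0.43 log2 units. The 5 other genes nearest to it, by root mean square distance over these 6 arrays and among genes with at least that SD, were Dusp16 at 0.0976, Slc4a4 at 0.11, Trim13 at 0.133, Tmx4 at 0.138 and Twsg1 at 0.148 log2 units. Dusp16, a phosphatase of MAP kinases, read 9.31, 8.54 and 8.80 on the DKO arrays and 9.61, 9.77 and 9.10 on the wild-type arrays (log2 intensity). Like the mean profile it was highest on DKO replicate 1 among the DKO arrays and lowest on replicate 3 among the wild-type arrays. It was chosen by its nearness to that profile, so this likeness follows from the choice. None of the 5 passed between the genotypes (adjusted p = 0.214 to 0.617).

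Most other immediate early genes did not pass the test, and their differences lay more often below 0 than above it. Of 52 listed genes 48 were tested, of which 1 fell, beside 2.50% of all genes, 0 rose and 47 did not pass. A lower mean in DKO was seen in 37 of the 48, beside 50.3% of all genes. At an unadjusted p under 0.05 (limma) there were 6 of 48, beside 14.7% of all genes. All DKO arrays lay below all wild-type arrays in 6 of 48, beside 10.4%. The median log2 difference of the 48 was -0.24. The gene that fell was Id1, an inhibitor of helix-loop-helix factors, which read 63, 63 and 101 in DKO, against 169, 162 and 173 in wild-type cells (difference -1.19, adjusted p = 0.0465). It passed in 1 of the 6 fits with an array omitted (adjusted p = 0.0259 to 0.167). With the replicate block 4 of 48 were lower, beside 5.63% of all genes. The other 3, named after their values were seen, were Dusp5, a phosphatase that acts on ERK in the nucleus (-1.42, adjusted p = 0.0113 with the block and 0.0619 without), Csrnp1 (-0.95, 0.0219 and 0.134) and the Fos relative Fosl2 (-1.03, 0.0174 and 0.241).

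Of 19 tested AP-1 and ATF family partners 0 passed by limma (1 at an unadjusted p under 0.05, Fosl2, whose difference was also the largest), with a median of -0.19. Of the 4 tested genes of the Egr family, Nab corepressors and Wt1, only Wt1 passed, beside 4.13% of all genes. This zinc-finger factor, which binds sites like those of Egr1, read 13, 19 and 27 in DKO, against 140, 313 and 148 in wild-type cells (difference -3.31, adjusted p = 0.00211), and passed in all 6 fits with an array omitted. Its call was lost when no probe set was filtered out (adjusted p = 0.0653). With 1 DKO array under 16, Wt1 met the filter through its wild-type arrays, so its place in these counts is no support. With 16 added to each value its difference was -2.53.

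Among inducers of these genes (serum response factor, Elk factors and MAP kinase pathway genes), 18 of 27 had a probe set and were tested. Their median was 0.00, and 1 passed, beside 4.13% of all genes. Rps6ka5, the kinase MSK1 that phosphorylates CREB and histone H3 at early response genes, read 98, 245 and 177 in DKO, against 453, 614 and 460 in wild-type cells (difference -1.64, adjusted p = 0.0402; passed in 1 of 6 fits with an array omitted, 0.0393 to 0.167). Among 15 tested genes described as targets of AP-1 or Egr factors, 2 fell, beside 2.50% of all genes, 0 rose and 13 did not pass. The median was -0.02. Thbs1, thrombospondin, read 97, 81 and 54 in DKO, against 333, 368 and 235 in wild-type cells (difference -2.03, adjusted p = 0.00716) and passed in all 6 such fits. It did not pass without the filter (adjusted p = 0.0785). Icam1, an adhesion molecule, read 160, 119 and 193 in DKO, against 416, 296 and 512 in wild-type cells (difference -1.37, adjusted p = 0.0433), and passed in 0 of the 6 fits (0.0508 to 0.156).

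Stress genes that handling can raise were also listed. Of 15 tested heat shock genes 1 rose, 0 fell and 14 did not pass, where 4.13% of all genes passed in either direction. The median was -0.13. Hspb8, a small heat shock protein, read 941, 657 and 827 in DKO, against 407, 267 and 313 in wild-type cells (difference 1.30, adjusted p = 0.0319), and passed in 1 of the 6 fits with an array omitted (0.0356 to 0.155). Of 18 tested genes of the integrated stress response 0 passed by limma (1 at an unadjusted p under 0.05), and the largest difference was that of Herpud1, a protein of the endoplasmic reticulum, at -0.94 (adjusted p = 0.402, and 0.0247 with the replicate block). Without the filter Id1, Rps6ka5, Icam1 and Hspb8 did not pass either (adjusted p = 0.131, 0.215, 0.177 and 0.109).

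**Figure D4:**
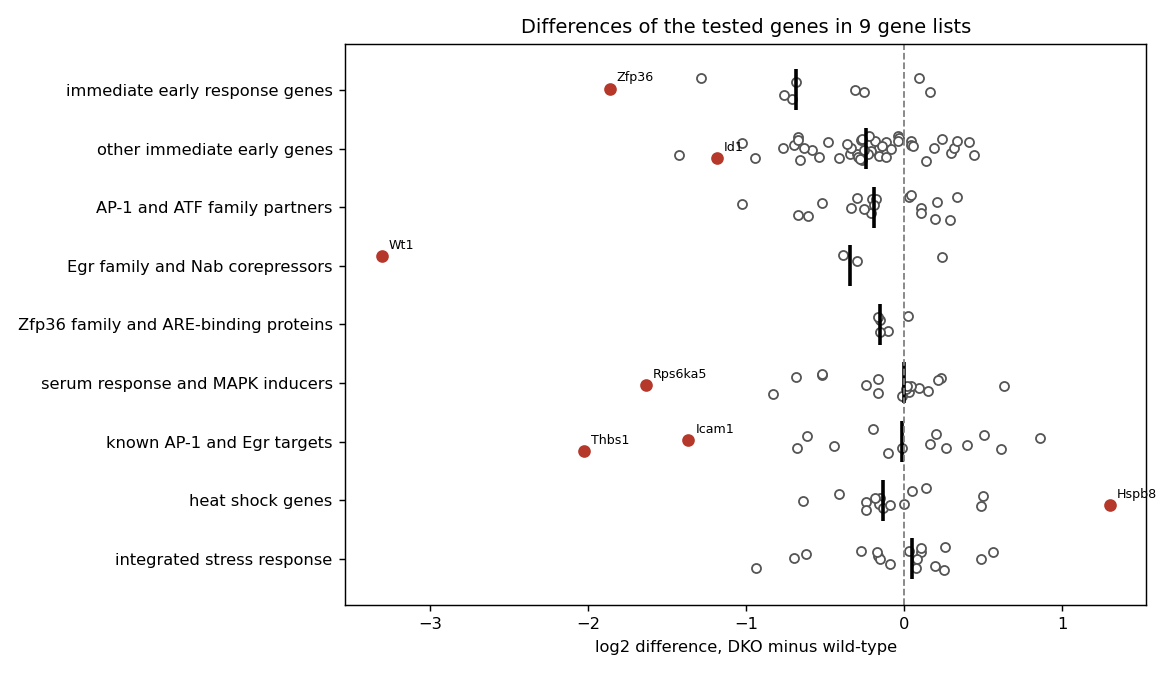
Log2 difference, DKO minus wild-type (horizontal axis), of the tested genes in 9 gene lists (vertical axis). Filled, named points passed an adjusted p of 0.05, black bars are list medians and the dashed line is the median of all tested genes, 0.00. The immediate early response genes have a median of -0.68 and the other immediate early genes one of -0.24. The former includes Fosb, which met the filter through its wild-type arrays, as did Wt1 in the list of the Egr family.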

How the data were processed

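The authors deposited 1 processed intensity per probe set and array as whole numbers, which were taken as linear because they lie between 1 and 12861. GCRMA 2.14.1, limma 2.16.5, R 2.8.0 and GCOS are listed in the submitters' processing notes, with no roles. Here log2 of the value was taken with no pseudocount. Gene names came from the platform annotation, with symbols updated by gene identifier through RefSeq (GRCm38.p6; 34754 of 34958 single-gene probe sets matched). Of 45101 probe sets, 20841 were tested: array controls were left out, and a log2 value of at least 4 on at least 3 arrays was required. The genotypes were compared (DKO minus wild-type) with lmFit and eBayes of limma 3.58.1 under R 4.3.3, as a two-sided test with Benjamini-Hochberg adjustment across every tested probe set and a threshold of 0.05. The procedure was tested on simulated data. A gene was read on its brightest tested probe set. The members, the lists and the tests were chosen with earlier results of these data known.

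Outside the 10 genes and Gsk3a and Gsk3b, genes were named by rule: up to 4 per list that passed, with the largest difference, or else the one with the largest difference, and the 5 nearest profiles. After subtraction of the genotype means, DKO and wild-type arrays with the same number correlated across tested probe sets (0.427, 0.354 and 0.595). By the rule used the numbers of the sample titles were taken as pairs. A replicate 3 shift shared by both genotypes would also raise each value, so they cannot show that replicates 1 and 2 pair by number. The SD of the log2 difference from DKO replicate 2 was 0.723 for wild-type replicate 2 and 0.676 for wild-type replicate 1. DKO replicates 1 and 3 were nearest to the wild-type array of their number. The number was left out of the main model and used as a block as 1 of the alternatives. Equal values on any 2 arrays were found in 1.79% of tested probe sets or fewer. Alternatives changed the filter, the pseudocount, the normalization, the moderation, the replicate 3 term and the arrays used.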

Additional observations from a re-analysis of the deposited data

How the results depend on the processing

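Zfp36 kept its direction in 15 of 15 alternatives and passed in 14. Among the 9 tested members 0 passed with no filter on dim probe sets (limma; 2 at an unadjusted p under 0.05) and 2 with the replicate block; the cause was not tested. Without an array, the log2 difference ranged from -0.69 to 0.031 for Fos, -0.20 to 0.32 for Egr1, -0.064 to 0.46 for Ier2 and -0.47 to 0.13 for Atf3, and Egr1 was at -0.065 over replicates 1 and 2 only. None of these was called. Over all tested probe sets 675 passed, 1995 with the replicate block, 1117 with the replicate 3 term and 440 over replicates 1 and 2 only, and 290 (without DKO replicate 1) to 604 without an array, with 381 and 319 when DKO replicate 2 or wild-type replicate 2 was left out. Of the other listed genes 8 passed, 2 with no filter, 18 with the replicate block, 13 with the replicate 3 term, 4 over replicates 1 and 2 only and 4 to 5 without an array. With the block the other members' calls did not change. Low intensities rounded to whole numbers limit what can be seen of Junb and Fosb.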
